A study of Mus musculus with 12 samples.

Results

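A set of 98 protein-coding genes of the respiratory chain and the ATP synthase was followed in MC38, a colorectal cancer line of mouse origin, after nintedanib, X-rays or both. They were chosen by symbol: the numbered Nduf genes of complex I, the Sdh genes of complex II, the Uqcr genes of complex III, the Cox4 to Cox8 genes of complex IV, the Atp5 genes of complex V and all mt- genes, out of 54532 genes in the table. Subunits under other symbols, such as Cyc1 of complex III and Ndufab1 of complex I, were therefore left out. Of these, 85 were encoded in the nucleus and 13 in the mitochondrial genome. Complex I held 35 nuclear and 7 mitochondrial genes, complex II 4 nuclear genes, complex III 8 and 1, complex IV 20 and 3, and complex V 18 and 2. Ndufa4, whose protein is now placed in complex IV, was counted there. Atp5o stood under 2 identifiers, the second listed at 0 in every library.

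Each group had 3 libraries: cultures given both treatments (the combination), cultures given nintedanib at 3 µM, cultures given X-rays at 8 Gy, and untreated control cultures. Nintedanib is a kinase inhibitor directed at receptors for vascular endothelial, platelet-derived and fibroblast growth factors. Treated cells were read at 24 hours, and the labels give no time for the controls. The cultures were of a single line, without the other cells of a tumour, and the labels give 3 independent repeats. Of the epithelial markers checked, Epcam was listed at 0 in every library, Krt18 reached 0.0838 FPKM and Krt8 0.601 FPKM, whereas Cdh1 stood at 4.12 to 8.73 FPKM. The mesenchymal marker Vim stood at 498 to 618 FPKM, and the leukocyte marker Ptprc reached 0.0292 FPKM.

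The respiratory chain passes electrons from NADH (through complex I) and from succinate (through complex II) to ubiquinone, then through complex III and cytochrome c to complex IV, where oxygen is reduced. Complexes I, III and IV pump protons across the inner mitochondrial membrane, and complex V, the ATP synthase, lets them back to make ATP. All of complex II and most subunits of the others are made from nuclear genes, while the mitochondrial genome, transcribed by its own polymerase as long precursors, codes for the hydrophobic cores of complexes I, III and IV and for a pair of ATP synthase subunits.

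The values are FPKM, that is fragment counts divided by gene model length and by a depth set for each library. The libraries held 16103528 to 18196615 fragments. The depth used in the FPKM was 0.970 to 0.982 of that total in controls and 1.001 to 1.031 of it in treated libraries. Fold changes against control are therefore lower than they would be with the fragment totals as depth. Fold changes are differences of group means of log2(FPKM + 1), written as log2 fold change ± SE with n = 3 each. They come from a limma fit over the 13012 genes with at least 1 FPKM in at least 3 libraries, and a gene is called higher or lower where its Benjamini-Hochberg adjusted p over those genes was under 0.05. Of the 98 genes, 91 passed that filter, 78 of them nuclear and 13 mitochondrial. The tissue-restricted isoforms Cox4i2, Cox6b2, Cox7b2, Cox8b, Cox8c and Ndufa4l2 and the second Atp5o did not. One library stood apart for the mitochondrial genes: nintedanib 3, in which they took 2.01% of fragments. Combination 1 was lower than the other combination libraries, and control 2 higher than the other controls, over the nuclear genes. Their median deviation from the mean of the controls, in log2, was -0.02 in combination 1, 0.28 and 0.33 in the other combination libraries, and 0.15 in control 2.

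Together the nuclear genes made up 0.732 ± 0.0752% of fragments in the combination, 0.692 ± 0.0379% with nintedanib, 0.612 ± 0.0376% with radiation and 0.665 ± 0.0557% in controls (SD, n = 3). The 13 mitochondrial genes made up 1.42 ± 0.098% of fragments in the combination, 1.58 ± 0.373% with nintedanib, 1.33 ± 0.164% with radiation and 1.22 ± 0.0554% in controls (SD, n = 3). Several of them share most of their sequence with other transcripts, as described below. How such fragments were counted is not given, so the mitochondrial share may leave out a part of them. In these cultures measured in bulk, the values are shares of each library's fragments. Neither the number of cells nor the total RNA per cell can be read from them.

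In cells given both treatments, subunits that rose outnumbered those that fell. Against controls, 22 of 78 nuclear genes were called higher (28.2%) and 5 lower (6.41%), beside 22.3% higher and 25% lower among all genes tested (47.2% called). The share of higher genes was thus not far from that of all genes, and the share of lower genes was smaller. The median log2 fold change was 0.21 over the nuclear genes and -0.03 over all genes, and the nuclear value was 0.13 without control 1 and 0.31 without combination 1. All combination libraries lay above all controls in 22 nuclear genes and below in 7, beside 26.7% and 30.1% of all genes tested. Of the 13 mitochondrial genes, 2 were called higher and 0 lower, with a median of 0.28. With FPKM rescaled to a common sum the nuclear counts were 30 higher and 2 lower, and with voom on recovered fragments 31 and 2. These runs called 44.2% and 47.8% of all genes, and 55.6% of the calls were higher in each, beside 47.1% in the main fit. The nuclear total of 27 called genes was 16 without control 1, 17 without control 3, 16 without combination 2 and 17 without combination 3, and the mitochondrial count was 0 without any 1 control, combination 1 or combination 3. With 1 library of these groups left out, 40% to 43.1% of all genes were called.

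With radiation alone few nuclear genes were called, and most of those were lower. Against controls, 1 nuclear gene was called higher and 5 lower of 78 (7.69% called), beside 17.9% called among all genes tested (8.04% higher, 9.9% lower). The nuclear median was -0.12, or -0.02 with FPKM rescaled to a common sum, -0.05 without control 2 and -0.20 without control 1. That of all genes was -0.04. With voom on recovered fragments, which uses the fragment totals, the nuclear median was -0.07 and that of all genes 0.02. In 17 nuclear genes every radiation library lay below every control, and in 1 above. Among all genes tested, 24.3% had radiation libraries all below the controls and 17.4% all above. No mitochondrial gene was called, and 1 had an unadjusted p under 0.05. These calls rest on few libraries: the 6 nuclear calls became 3, 1 and 2 without control 1, 2 or 3 and 3, 1 and 3 without radiation 1, 2 or 3. With FPKM rescaled to a common sum they were 1 higher and 2 lower.

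Nintedanib alone changed few of these genes. It raised 7 and lowered 2 of the 78 nuclear genes (11.5% called), beside 41.6% called among all genes tested (19.7% higher, 22% lower). The nuclear median was 0.06, against -0.02 over all genes, and it was -0.01 without control 1, 0.0038 without nintedanib 1, 0.13 without control 2 and 0.14 with FPKM rescaled to a common sum. The libraries did not overlap in 9 higher and 3 lower nuclear genes, beside 24.5% and 26.5% of all genes. In the mitochondrial genome 3 of 13 genes were called higher, with a median of 0.32 that was 0.14 without nintedanib 3. The 9 nuclear calls became 15 without nintedanib 3 and 6 without nintedanib 2, beside 38.7% and 35.3% of all genes called. Rescaling to a common sum gave 14 higher and 2 lower nuclear genes. It called 39.1% of all genes, and 60% of those calls were higher, beside 47.2% in the main fit.

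Set against radiation alone, the combination was higher in 27 and lower in 2 of the 78 nuclear genes (34.6% and 2.56%). Among all genes tested 17.2% were higher and 17.3% lower (34.4% called). The nuclear median was 0.36. Among all tested protein-coding genes, those with models of at most 1500 bases were 22.6% higher and 3.81% lower, and longer ones 19.1% and 20.4%. Of the nuclear genes, 16 of 36 short ones were higher and 1 lower, and of 42 longer ones 11 and 1. With a trend on gene length removed from each library, 23 nuclear genes were higher and 2 lower (median 0.19), beside 36.3% of all genes called. Every combination library was above every radiation library in 34 nuclear genes and below in 3, beside 23.3% and 24.1% of all genes. Uqcrh and Uqcr11 had the largest rises of these, 1.06 ± 0.13 and 0.96 ± 0.25 (SE), and Cox6a2 the largest fall, -1.58 ± 0.23. The count of 29 was 19 without combination 3 and 40 without combination 1, beside 28.5% and 32.5% of all genes called. No mitochondrial gene was called in this comparison, and 0 had an unadjusted p under 0.05. Set against nintedanib alone, no nuclear or mitochondrial gene was called by limma for the combination, beside 5.55% of all genes tested (3.17% higher, 2.37% lower). The libraries did not overlap in 5 higher and 1 lower nuclear gene, beside 10.4% and 11.8% of all genes. By unadjusted p, 8 nuclear and 0 mitochondrial genes were under 0.05, and voom on recovered fragments called 0 and 0. The interaction, (combination minus radiation) minus (nintedanib minus control) on the log2 scale, had a nuclear median of 0.25 and a mitochondrial median of -0.17, with none of these genes called by limma, beside 0.00769% of all genes. The nuclear median was 0.15 without control 2, 0.12 with a common sum and 0.11 with a trend on gene length removed from each library. The mitochondrial one was -0.02 without nintedanib 3, -0.31 with a common sum and -0.33 with the length trend removed. Like the other mitochondrial medians, it takes in the low mitochondrial genes described below, whose levels are uncertain or rest on few fragments. Of the members, 14 nuclear and 1 mitochondrial gene had an unadjusted p under 0.05, and voom called 0 and 0. So the larger count of nuclear rises in the combination than with nintedanib was not shown as a difference for any single gene.

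**Figure D1:**
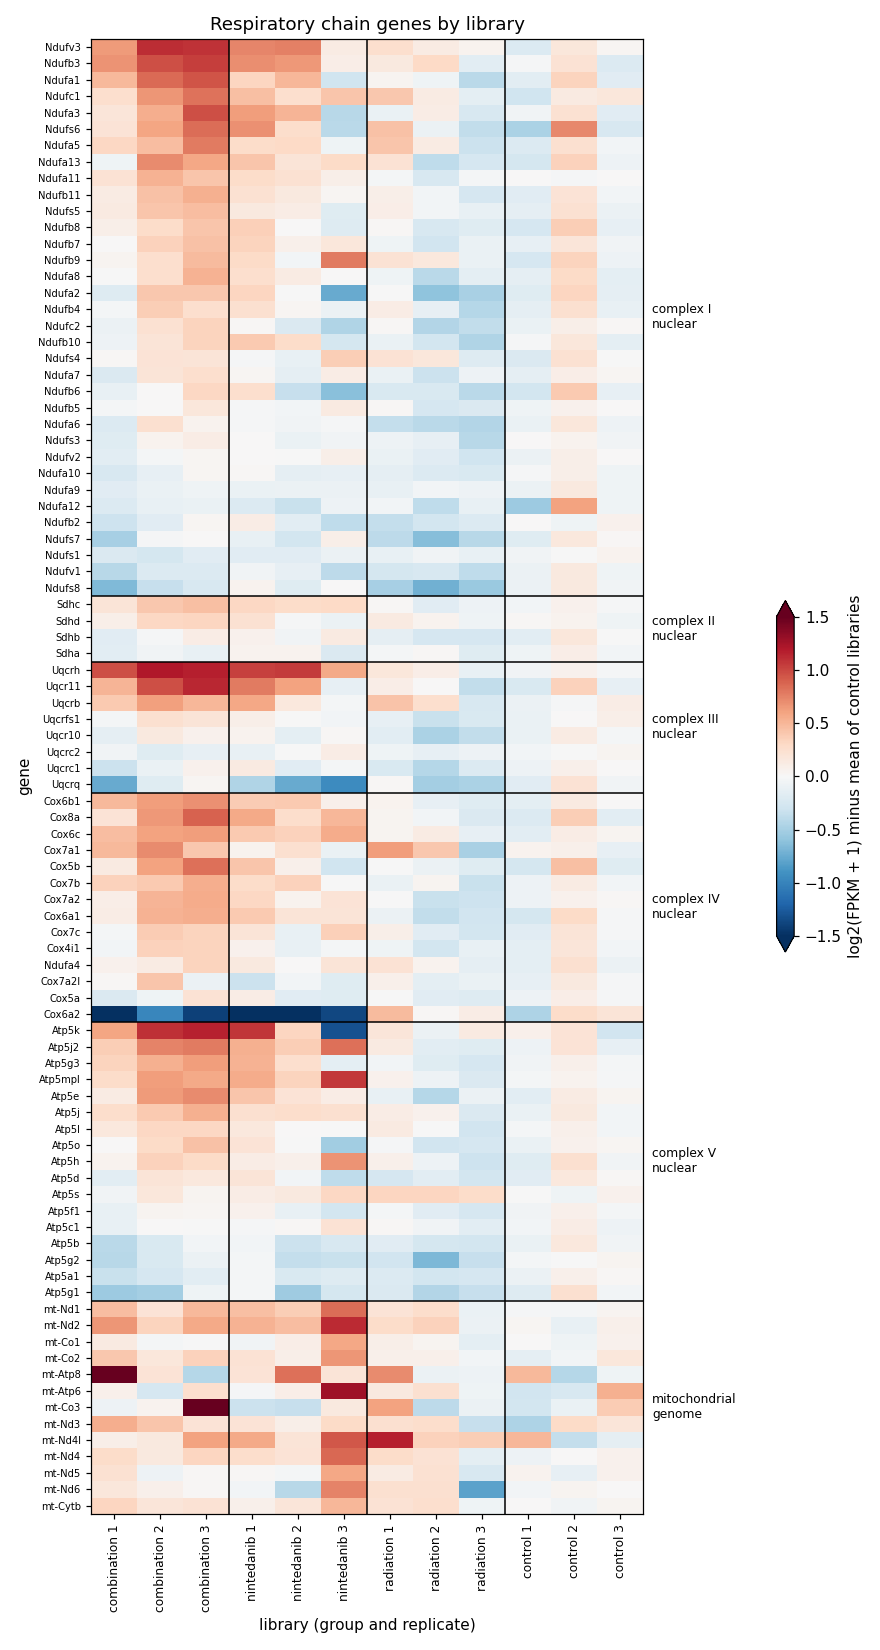
Each row is a tested gene, grouped by complex (1 nuclear complex I gene is not shown), and each column 1 library. Colour gives log2(FPKM + 1) minus the mean of the 3 controls, red higher and blue lower. Among nuclear genes red is mostly in combination 2 and combination 3, and among mitochondrial genes nintedanib 3 stands out.

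With the combination, complex I had 8 higher and 3 lower of 35 (median 0.16), and complex II 1 higher and 0 lower of 4 (0.11). Complex III had 3 higher and 0 lower of 8 (0.08, but -0.03 once a trend with gene length was taken out of each library). Complex IV had 5 higher and 1 lower of 14 tested (0.39), and complex V 5 higher and 1 lower of 17 (0.23). Among all genes tested 22.3% were higher and 25% lower, so that the shares of higher genes in complexes I and II, 22.9% and 25%, were near that of all genes. With radiation the medians were -0.15 for complex I, -0.07 for complex II, -0.16 for complex III, -0.09 for complex IV and -0.15 for complex V. Rescaling to a common sum turned the median of complex II to 0.04 and that of complex IV to 0.02. No test of a difference between complexes was made.

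**Figure D2:**
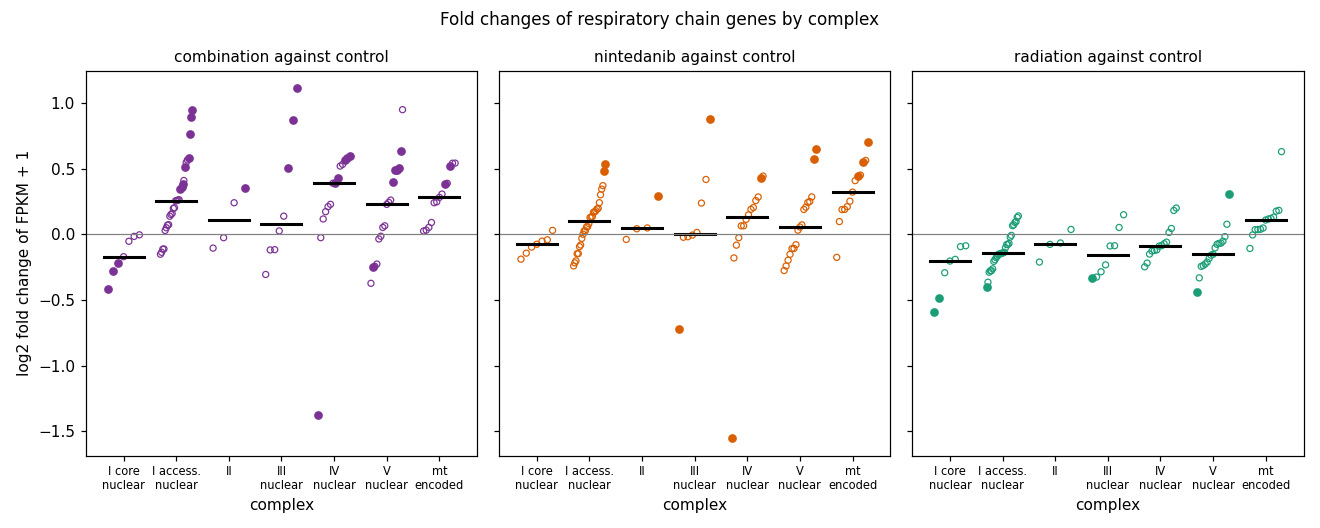
Log2 fold change of FPKM + 1 against control (vertical axis) of each tested gene, by complex (horizontal axis), for nintedanib, radiation and the combination. Filled points passed the adjusted threshold, open points did not, and the bar is the median. In the combination panel the core subunits of complex I lie mostly at or below 0 and the accessory subunits mostly above it.

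Complex I, the NADH dehydrogenase, has a catalytic core and many accessory subunits around it. The 7 nuclear core subunits carry the flavin and the iron-sulfur clusters, and 3 of them fell with the combination while none rose (42.9% lower, beside 25% of all genes tested). Ndufs8 (ENSMUSG00000059734, chromosome 19, 3908870 to 3912717, 963 bases of gene model), which holds iron-sulfur clusters near the ubiquinone site, measured 30.6, 38.2 and 41.3 FPKM in the combination libraries, 50.8, 43 and 49 in the nintedanib libraries, 34.2, 29.4 and 32.9 in the radiation libraries and 46, 54 and 47 in the controls. Every combination and every radiation library was below every control, and the nintedanib libraries overlapped the controls. Its log2 fold change was -0.42 ± 0.11 (SE, adjusted p = 0.011) with the combination and -0.59 ± 0.11 (SE, adjusted p = 0.00615) with radiation, and -0.04 ± 0.11 (SE, adjusted p = 0.801) with nintedanib.

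Ndufv1, which binds NADH and flavin, measured 39.2, 45.8 and 45.5 FPKM in the combination libraries, 51, 48.3 and 39.98 in the nintedanib libraries, 44, 44.5 and 40.4 in the radiation libraries and 49.6, 58.6 and 50.5 in the controls. All combination libraries were below all controls. That was a change of -0.28 ± 0.10 (SE, adjusted p = 0.045) with the combination. Ndufv1 missed the threshold with the combination when any 1 of control 1, control 2, control 3, combination 1, combination 2 and combination 3 was left out (adjusted p 0.0513 to 0.162). Ndufs1, which carries several iron-sulfur clusters, measured 9.26, 9.0 and 9.65 FPKM in the combination libraries, 9.61, 9.68 and 10.2 in the nintedanib libraries, 10.05, 10.6 and 10.03 in the radiation libraries and 10.5, 11 and 11.4 in the controls. Here too the combination and the controls did not overlap, at a small fold change of -0.22 ± 0.06 (SE, adjusted p = 0.00803), which missed the threshold with FPKM rescaled to a common sum and with voom (adjusted p = 0.145 and 0.0657). Eef1b2, on the other strand, overlaps Ndufs1 and averaged 188 FPKM in the combination and 232 FPKM in controls, and without a stated strand setting reads of this pair cannot be told apart. Ndufs7, the core subunit that passes electrons to ubiquinone, measured 28.2, 23.6 and 27.9 FPKM in the radiation libraries and 32.9, 42 and 38.1 in the controls. The groups did not overlap, and the fold change was -0.48 ± 0.15 (SE, adjusted p = 0.0433) with radiation and -0.17 ± 0.15 (SE, adjusted p = 0.372) with the combination. Ndufs7 missed the threshold with radiation when any 1 of control 2, control 3, radiation 1, radiation 2 and radiation 3 was left out (adjusted p 0.0712 to 0.154). Ndufs3 and Ndufv2 were not called in any comparison with control, at 0.00 ± 0.10 and -0.05 ± 0.08 with the combination.

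Of the 28 accessory subunits, 8 were called higher and 0 lower in the combination (28.6% higher, beside 22.3% higher and 25% lower among all genes tested). Ndufv3 (ENSMUSG00000024038, chromosome 17, 31520115 to 31531326, 2490 bases of gene model), an accessory subunit of the NADH-oxidising module, measured 16.8, 23.7 and 23.3 FPKM in the combination libraries, 18, 18.3 and 11.5 in the nintedanib libraries, 12.6, 11.4 and 10.9 in the radiation libraries and 8.93, 11.9 and 10.7 in the controls. All combination libraries were above all controls and all radiation libraries, and nintedanib 3 lay among the controls. Against controls it changed by 0.94 ± 0.18 (SE, adjusted p = 0.00113) with the combination and 0.54 ± 0.18 (SE, adjusted p = 0.0298) with nintedanib. Ndufv3 missed the threshold with nintedanib when any 1 of control 1, control 3, nintedanib 1 and nintedanib 2 was left out (adjusted p 0.0633 to 0.113). Ndufb3 (ENSMUSG00000026032, chromosome 1, 58586384 to 58595964, 763 bases of gene model), in the membrane arm, measured 34.3, 42.3 and 44.5 FPKM in the combination libraries, 35.1, 33.9 and 22.9 in the nintedanib libraries, 23.6, 26.2 and 18.9 in the radiation libraries and 20.9, 24.8 and 18.3 in the controls. The combination libraries stood apart above the controls, and the nintedanib libraries overlapped them through nintedanib 3. This gave a fold change of 0.89 ± 0.18 (SE, adjusted p = 0.00167) with the combination and 0.49 ± 0.18 (SE, adjusted p = 0.0466) with nintedanib. Ndufb3 missed the threshold with nintedanib when any 1 of control 1, control 3, nintedanib 1 and nintedanib 2 was left out (adjusted p 0.0999 to 0.158).

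Ndufa1, a small X-linked membrane subunit needed to assemble complex I, measured 50.7, 65.9 and 70.3 FPKM in the combination libraries, 45.1, 51.1 and 29.1 in the nintedanib libraries, 37.1, 34.5 and 26.9 in the radiation libraries and 32.1, 45.8 and 31.8 in the controls. The combination was above every control, while nintedanib and control libraries overlapped. The change against controls was 0.76 ± 0.22 (SE, adjusted p = 0.0132) with the combination. Ndufa1 had an adjusted p of 0.0515 with the combination when control 3 was left out. The other accessory genes called higher in the combination were Ndufc1, Ndufa5, Ndufa11, Ndufb11 and Ndufs5, at 0.58, 0.52, 0.38, 0.36 and 0.34. Ndufa11 kept its call in every alternative run, but it is overlapped on the other strand by Vmac, which averaged 10.5 FPKM in the combination and 5.87 FPKM in controls. Ndufc1 missed the threshold when any 1 of control 1, combination 2 and combination 3 was left out (adjusted p 0.0598 to 0.0808). Ndufa5, Ndufb11 and Ndufs5 missed it with the replicate block (0.0619, 0.0544 and 0.0542) and when any 1 of control 1, control 3, combination 2 and combination 3 was left out (0.0766 to 0.16). All 4 also missed it with no filter (0.0522 to 0.108). With radiation Ndufa6, which links the core to an acyl carrier protein, was the only accessory gene called: it measured 18.5, 17.9 and 17.4 FPKM in the radiation libraries and 22.2, 27.1 and 22.7 in the controls, every radiation library was below every control, and the fold change was -0.40 ± 0.11 (SE, adjusted p = 0.0254). Ndufa6 missed the threshold with radiation when any 1 of control 2, control 3, radiation 1, radiation 2 and radiation 3 was left out (adjusted p 0.0511 to 0.0954).

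In medians, the core subunits of complex I stood at -0.17 and the accessory ones at 0.26 in the combination. Across the alternatives run, the core median was -0.24 to -0.01, the value nearest 0 being the one without combination 1. The core genes were also longer, with a median gene model of 2178 bases against 1234 for the accessory genes. With the length trend removed, the medians were -0.16 and 0.13, with 3 core genes lower and 7 accessory genes higher. That run called 3100 of 13012 genes higher and 3329 lower. With radiation the core median was -0.20 and the accessory median -0.14, which was 0.01 without control 2. With nintedanib they were -0.08, or 0.02 rescaled to a common sum, and 0.10, or -0.01 without control 1.

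Complex II, succinate dehydrogenase, feeds electrons from the citric acid cycle and has 4 subunits, of which 1 rose. Sdhc (ENSMUSG00000058076, chromosome 1, 171127165 to 171150603, 3250 bases of gene model), a membrane anchor that helps form the ubiquinone site, measured 33, 38.5 and 39.8 FPKM in the combination libraries, 36, 35 and 35.5 in the nintedanib libraries, 29.2, 25.4 and 27.1 in the radiation libraries and 27.8, 30.1 and 28.4 in the controls. Every library given nintedanib, with or without X-rays, was above every library without it. Its log2 fold change was 0.35 ± 0.08 (SE, adjusted p = 0.00318) with the combination, 0.29 ± 0.08 (SE, adjusted p = 0.0105) with nintedanib and -0.08 ± 0.08 (SE, adjusted p = 0.542) with radiation, and its 2 calls held in all alternatives run. The other anchor, Sdhd, measured 84.6, 98.6 and 99.6 FPKM in the combination libraries and 80.1, 82.3 and 75.9 in the controls, with no overlap, but its 0.24 ± 0.10 (SE, adjusted p = 0.0628) did not pass the threshold. The flavoprotein Sdha and the iron-sulfur subunit Sdhb were not called in any comparison with control and stood at -0.10 ± 0.09 and -0.03 ± 0.10 with the combination.

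Complex III, the cytochrome bc1 complex, gave the largest rise of any nuclear subunit with nintedanib and with the combination. Uqcrh (ENSMUSG00000063882, chromosome 4, 116066965 to 116075071, 1237 bases of gene model), the hinge protein that sits beside cytochrome c1, measured 64, 76 and 74 FPKM in the combination libraries, 66.7, 67.8 and 48.4 in the nintedanib libraries, 36.6, 34.8 and 29.8 in the radiation libraries and 31.3, 33.9 and 32 in the controls. Every library given nintedanib was above every library without it, and radiation and control libraries overlapped. The difference on the log2 scale was 1.11 ± 0.13 (SE, adjusted p = 3.57e-05) with the combination, 0.88 ± 0.13 (SE, adjusted p = 2.38e-04) with nintedanib and 0.05 ± 0.13 (SE, adjusted p = 0.814) with radiation. A pseudogene on the other strand, Gm12854, overlaps this gene and averaged 27.4, 19, 12.5 and 13.4 FPKM in the combination, nintedanib, radiation and control groups. Here too the reads of the pair cannot be told apart.

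Uqcr11, a small subunit at the edge of the complex, measured 35.9, 49.7 and 56 FPKM in the combination libraries, 43.5, 38.4 and 22.9 in the nintedanib libraries, 26.8, 25.1 and 19.2 in the radiation libraries and 21.2, 32.2 and 22.9 in the controls. All combination libraries were above all controls and all radiation libraries, while nintedanib and control libraries overlapped. Its fold change came to 0.87 ± 0.25 (SE, adjusted p = 0.0128) with the combination. Uqcr11 had an adjusted p of 0.0505 with the combination without control 1 and 0.0515 without combination 3. Uqcrb, which binds near a ubiquinone site, measured 37.3, 43.7 and 40.3 FPKM in the combination libraries and 26.5, 27.6 and 30.3 in the controls, with no overlap, and changed by 0.51 ± 0.18 (SE, adjusted p = 0.0343). Uqcrb missed the threshold with the combination when any 1 of control 1, control 2, control 3, combination 2 and combination 3 was left out (adjusted p 0.0503 to 0.102). Of the 50-base windows of Uqcrb, 25.5% also occur in other transcripts, so its value is uncertain.

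Falls in complex III came from other small subunits. Uqcrq, which anchors cytochrome b, measured 40.9, 61.6 and 71.2 FPKM in the combination libraries, 51, 41 and 35.8 in the nintedanib libraries, 70.7, 48.7 and 50.02 in the radiation libraries and 62.3, 81.8 and 67.3 in the controls. All nintedanib libraries were below all controls, and the combination overlapped them. Its log2 fold change was -0.72 ± 0.21 (SE, adjusted p = 0.018) with nintedanib and -0.31 ± 0.21 (SE, adjusted p = 0.264) with the combination. Uqcrq missed the threshold with nintedanib when any 1 of control 2, nintedanib 2 and nintedanib 3 was left out (adjusted p 0.0509 to 0.0691). Uqcr10 measured 67.6, 54.4 and 58.5 FPKM in the radiation libraries and 71, 82.9 and 74.1 in the controls, and every radiation library was below every control. Its fold change with radiation was -0.33 ± 0.10 (SE, adjusted p = 0.0464). Uqcr10 missed the threshold with radiation when any 1 of control 1, control 2, control 3, radiation 2 and radiation 3 was left out (adjusted p 0.0616 to 0.172). The Rieske iron-sulfur protein Uqcrfs1 and the core proteins Uqcrc1 and Uqcrc2 were not called against control, at 0.14 ± 0.09, -0.12 ± 0.11 and -0.12 ± 0.07 with the combination.

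Complex IV, cytochrome c oxidase, had the highest median of the nuclear complexes in the combination, and its rises were in the small subunits around the mitochondrially encoded core. Cox6c (ENSMUSG00000014313, chromosome 15, 35925886 to 35938246, 3567 bases of gene model) measured 29.2, 32.2 and 32.7 FPKM in the combination libraries, 27.8, 26.8 and 31 in the nintedanib libraries, 21.5, 22.8 and 19.2 in the radiation libraries and 18.7, 22.6 and 21.6 in the controls. The libraries given nintedanib were all above those without it. Against controls it changed by 0.56 ± 0.09 (SE, adjusted p = 4.33e-04) with the combination and 0.43 ± 0.09 (SE, adjusted p = 0.00307) with nintedanib. Cox6b1 (ENSMUSG00000036751, chromosome 7, 30616861 to 30626151, 708 bases of gene model), which bridges the monomers of the enzyme, measured 110.5, 122 and 126 FPKM in the combination libraries, 103, 103 and 83.1 in the nintedanib libraries, 81.3, 72.2 and 68.9 in the radiation libraries and 70.9, 86.5 and 79.2 in the controls. All combination libraries were above all radiation and control libraries. This gave a fold change of 0.60 ± 0.11 (SE, adjusted p = 8.57e-04) with the combination, and 0.28 ± 0.11 (SE, adjusted p = 0.0531) with nintedanib.

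Cox8a, a short membrane subunit, measured 214, 289.8 and 343 FPKM in the combination libraries, 275, 222 and 261 in the nintedanib libraries and 160.4, 239 and 165 in the controls. Control 2 lay among the combination and nintedanib libraries, so the groups overlapped. The change against controls was 0.58 ± 0.19 (SE, adjusted p = 0.0231) with the combination. Cox8a missed the threshold with the combination when any 1 of control 1, control 3, combination 2 and combination 3 was left out (adjusted p 0.0657 to 0.0945). Cox7b and Cox7a2 also rose in the combination, by 0.43 ± 0.12 and 0.39 ± 0.13 (adjusted p = 0.010 and 0.0278). Cox7b kept its call in every alternative run, whereas Cox7a2 missed the threshold with no filter (adjusted p = 0.0651), with the replicate block (0.0517) and when any 1 of control 1, control 3, combination 2 and combination 3 was left out (0.0619 to 0.106). The subunits that form the inner shell, Cox4i1, Cox5a and Cox5b, were not called against control, at 0.21 ± 0.12, -0.03 ± 0.12 and 0.52 ± 0.23.

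Several complex IV subunits exist as isoforms of different tissues, and the isoforms did not move as a set. Cox6a1, the common form, measured 199, 264 and 268 FPKM in the combination libraries, 242, 210.3 and 209.9 in the nintedanib libraries, 173, 143 and 151 in the radiation libraries and 153, 224 and 182 in the controls, and its 0.39 ± 0.15 (SE, adjusted p = 0.0532) with the combination did not pass. Cox6a2, the heart and skeletal muscle form, was far less abundant and measured 0.491, 1.57 and 0.914 FPKM in the combination libraries, 0.742, 0.497 and 0.965 in the nintedanib libraries, 6.02, 4.09 and 4.46 in the radiation libraries and 2.66, 5.1 and 4.77 in the controls. Every library given nintedanib was below every library without it. Its log2 fold change was -1.38 ± 0.23 (SE, adjusted p = 5.54e-04) with the combination and -1.55 ± 0.23 (SE, adjusted p = 3.06e-04) with nintedanib on the log2(FPKM + 1) scale, which understates it at this level; with a pseudocount of 0.1 the nintedanib value was -2.34, and with voom -2.38. Of the muscle markers, Ckm reached 0.058 FPKM and Myh1 0.00962 FPKM, with most libraries at 0, while Des averaged 1.6, 1.12, 1.03 and 0.45 FPKM in the combination, nintedanib, radiation and control groups.

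Among the remaining isoform pairs, the common member was the abundant one. Cox4i1 stood at 158 to 245 FPKM and Cox4i2, the lung form, at 0.0715 to 0.706 FPKM. Cox7a2 and Cox7a2l (a relative that helps join complexes III and IV) stood at 43.2 to 81.1 FPKM and 84.7 to 142 FPKM, and the muscle form Cox7a1 at 0.63 to 2.72 FPKM. Ndufa4 stood at 23.9 to 33.8 FPKM and Ndufa4l2, known as a hypoxia-inducible relative, at 0.154 to 1.28 FPKM. The testis form Cox6b2 reached 0.166 FPKM, the muscle form Cox8b 0.469 FPKM and Cox7b2 0.209 FPKM, and Cox8c was listed at 0 in all libraries. Cox7a1 and Cox7a2l were not called, at 0.53 ± 0.23 and 0.12 ± 0.13 with the combination.

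Complex V, the ATP synthase, has a catalytic head, joined by stalks to a membrane part. In the membrane part, Atp5j2 (ENSMUSG00000038690, chromosome 5, 145183698 to 145192062, 3306 bases of gene model), the f subunit, measured 20.2, 26.5 and 27 FPKM in the combination libraries, 22.7, 20.1 and 28.1 in the nintedanib libraries, 17, 13.7 and 13.4 in the radiation libraries and 14.5, 17.8 and 14.1 in the controls. The libraries given nintedanib were all above those without it. The difference on the log2 scale was 0.63 ± 0.15 (SE, adjusted p = 0.00464) with the combination and 0.58 ± 0.15 (SE, adjusted p = 0.0091) with nintedanib. Atp5mpl, a small proteolipid that travels with the complex, measured 18.5, 23.9 and 22.9 FPKM in the combination libraries, 22.7, 19.3 and 32.5 in the nintedanib libraries, 15.8, 14.3 and 12.8 in the radiation libraries and 14.8, 15.6 and 14.8 in the controls. The combination and nintedanib libraries were all above the controls, and nintedanib 3 was the highest library. Its fold change came to 0.65 ± 0.16 (SE, adjusted p = 0.00665) with nintedanib and 0.49 ± 0.16 (SE, adjusted p = 0.0243) with the combination. Atp5mpl missed the threshold with the combination when any 1 of control 1, control 3, combination 2 and combination 3 was left out (adjusted p 0.063 to 0.0841).

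Atp5g3, 1 of 3 genes for the c subunit of the rotor ring, measured 72.5, 83.5 and 89.1 FPKM in the combination libraries, 82.3, 68.4 and 51.3 in the nintedanib libraries, 55.4, 50.4 and 47.8 in the radiation libraries and 55.3, 60.1 and 56.2 in the controls. All combination libraries were above the controls, and nintedanib and control libraries overlapped. That was a change of 0.50 ± 0.14 (SE, adjusted p = 0.0133) with the combination. Atp5g3 had an adjusted p of 0.0508 with the combination when combination 3 was left out. The other c-subunit genes did not rise: Atp5g1 stood at -0.37 ± 0.16 (SE, adjusted p = 0.0745) and Atp5g2 at -0.24 ± 0.12 (SE, adjusted p = 0.125). With radiation Atp5g2 measured 84.7, 64.5 and 81.2 FPKM in the radiation libraries and 102, 103 and 107 in the controls, all radiation libraries below all controls, and fell by 0.44 ± 0.12 (SE, adjusted p = 0.0309). Atp5g2 missed the threshold with radiation when any 1 of control 1, control 2, control 3, radiation 2 and radiation 3 was left out (adjusted p 0.0503 to 0.121). Of its 50-base windows, 38.3% also occur in other transcripts, mostly the pseudogene Gm10175, so its value is uncertain.

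In the head, the catalytic partner Atp5a1 (ENSMUSG00000025428, chromosome 18, 77773729 to 77782869, 3135 bases of gene model) was the only complex V gene called lower in the combination. It measured 197, 209 and 223 FPKM in the combination libraries, 244, 211 and 217 in the nintedanib libraries, 216, 204 and 209 in the radiation libraries and 234, 261 and 251 in the controls, with every combination library below every control, and a fold change of -0.25 ± 0.08 (SE, adjusted p = 0.0231). Atp5a1 missed the threshold with the combination when any 1 of control 2, control 3, combination 1 and combination 2 was left out (adjusted p 0.0554 to 0.0811). The catalytic Atp5b and the central stalk gene Atp5c1 were not called, at -0.23 ± 0.11 and -0.04 ± 0.08. The small stalk subunit Atp5e rose, at 43, 62 and 64.8 FPKM in the combination libraries and 35.2, 43 and 40.4 in the controls, by 0.49 ± 0.16 (SE, adjusted p = 0.0229), although control 2 reached the lowest combination library. Atp5e missed the threshold with the combination when any 1 of control 1, combination 2 and combination 3 was left out (adjusted p 0.0836 to 0.0907). Atp5j, in the peripheral stalk, rose by 0.40 ± 0.10 (SE, adjusted p = 0.0071) and kept its call in every alternative run.

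Atp5s, a coupling factor, was the only nuclear gene called higher with radiation. It measured 4.71, 4.67 and 4.49 FPKM in the radiation libraries and 3.54, 3.34 and 3.78 in the controls, with no overlap, and changed by 0.30 ± 0.08 (SE, adjusted p = 0.0237). Atp5s missed the threshold with radiation when any 1 of control 1, control 2, radiation 1 and radiation 2 was left out (adjusted p 0.0612 to 0.0843). The largest fold change that did not pass was in Atp5k, the e subunit, chosen after its values were seen: it measured 18.3, 26.4 and 27.3 FPKM in the combination libraries, 25.9, 15 and 4.17 in the nintedanib libraries, 13.5, 11 and 13 in the radiation libraries and 12.5, 13.7 and 9.49 in the controls. The combination libraries were all above the radiation and control libraries, but the nintedanib libraries ran from the lowest to nearly the highest of all, and the fold change was 0.95 ± 0.45 (SE, adjusted p = 0.104).

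**Figure D3:**
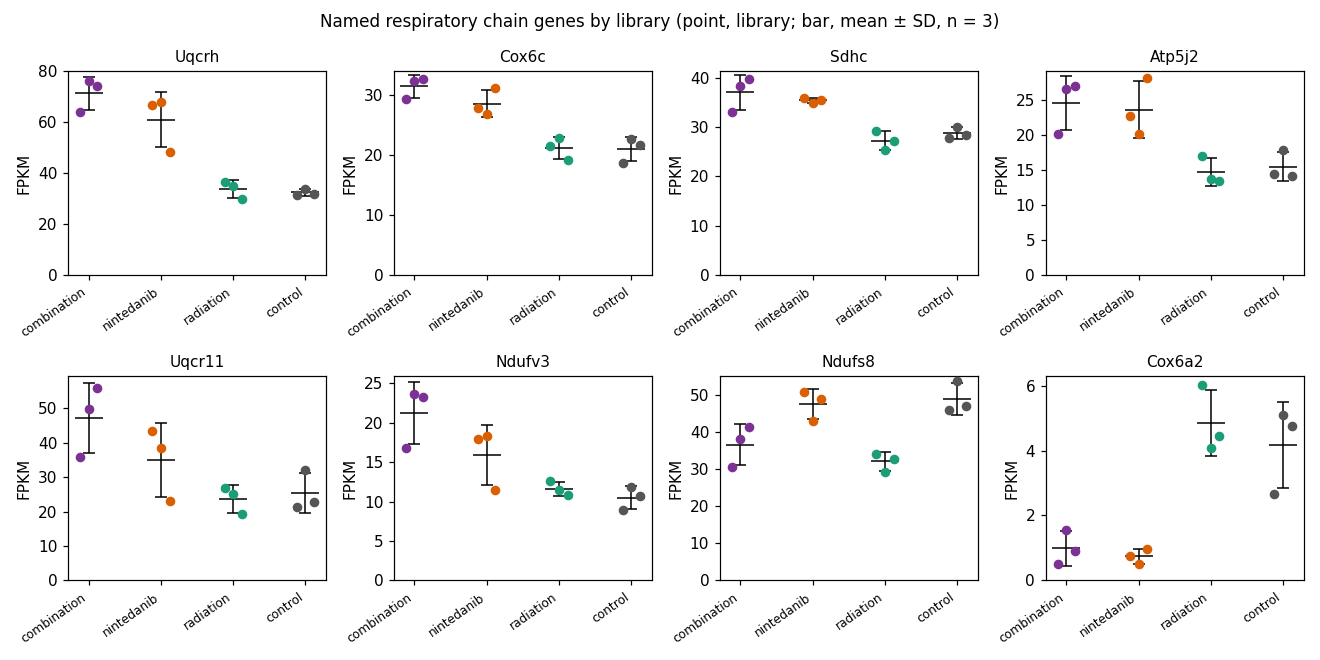
FPKM (vertical axis, from 0) of 8 nuclear genes in each library, by group. Points are libraries and bars the mean ± SD of 3. Uqcrh, Cox6c, Sdhc and Atp5j2 are higher in all 6 libraries given nintedanib, Cox6a2 is lower in them, and Ndufs8 is lower in the irradiated groups.

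The 13 mitochondrial genes fell into a high and a low class that did not follow their complexes, and 5 of the 6 low genes shared nearly all of their sequence with another transcript. Part of the mitochondrial genome is repeated on chromosome 1 as a run of pseudogenes, and mt-Atp6, mt-Co3, mt-Nd4l, mt-Nd4 and mt-Co2 match their copies there without a mismatch over the aligned stretch. The first 60 bases of a pair of genes are shown as examples: mt-Nd3, whose copy there has a mismatch, and mt-Co2, which also has a copy on chromosome 2. Sequences are from the GENCODE M21 transcripts (GRCm38), 5′ to 3′, with positions counted from 1 at the first base of the gene and the bases that differ between the copies in capitals.
mt-Nd3: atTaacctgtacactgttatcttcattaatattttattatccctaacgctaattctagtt
Gm28438: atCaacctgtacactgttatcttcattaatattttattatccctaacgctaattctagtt
mt-Co2: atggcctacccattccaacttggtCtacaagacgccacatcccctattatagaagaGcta
Gm28661: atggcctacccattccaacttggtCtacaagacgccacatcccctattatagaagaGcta
Gm13341: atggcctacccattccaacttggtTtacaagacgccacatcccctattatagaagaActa
The pseudogene Gm28438 (chromosome 1, 24612775 to 24613119) differs from mt-Nd3 by T3C, and Gm28661 (chromosome 1, 24614885 to 24615565) matches mt-Co2 over all 681 aligned bases. The copy Gm13341 on chromosome 2 has C25T and G57A in this stretch.

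The low class was mt-Co2, mt-Co3, mt-Atp6, mt-Nd4l and mt-Nd3, with means over the 12 libraries of 32.4, 24.7, 21, 7.11 and 3.01 FPKM, and between 98% and 100% of their 50-base windows also occurred in another transcript. mt-Atp8, at 0.812 FPKM, shared none but rested on 0 to 14 fragments in a gene model of 204 bases. The high class ran from mt-Nd4 at 593 FPKM through mt-Nd2 at 708, mt-Nd6 at 921, mt-Nd5 at 933, mt-Nd1 at 1468 and mt-Cytb at 1854 to mt-Co1 at 4156 FPKM. Of these, mt-Nd4 shared 62.2% and mt-Co1 51.1% of windows, mt-Nd2 8.19%, mt-Nd5 7.61% and the others 0%. The copies had values of their own: Gm28438 44.5 to 111 FPKM beside 1.56 to 4.16 FPKM for mt-Nd3, and Gm28661 22.1 to 32.5 FPKM beside 25.9 to 45.6 FPKM for mt-Co2. How fragments that match both places were counted is not given in the sources used here, so the levels of these 5 genes are uncertain, and those of mt-Nd4 and mt-Co1 in part.

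**Figure D4:**
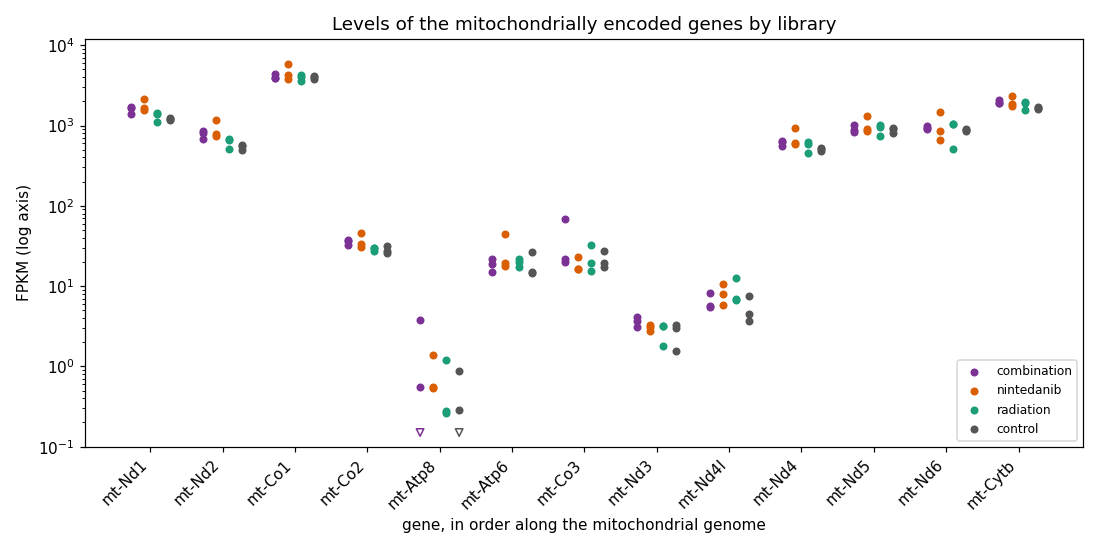
FPKM on a log axis (vertical) of the 13 mitochondrial genes in their order along the genome (horizontal), 1 point per library, coloured by group. Open triangles at the foot are libraries listed at 0. The genes form an upper band of 7 and a lower band of 6, with no library in between.

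Of the 13 mitochondrial genes, 3 were called higher with nintedanib (23.1%) and 2 with the combination (15.4%), beside 19.7% and 22.3% of all genes tested. These were complex I genes. mt-Nd1 measured 1653, 1382 and 1686 FPKM in the combination libraries, 1639, 1554 and 2145 in the nintedanib libraries, 1387, 1440.5 and 1121 in the radiation libraries and 1191, 1179 and 1239.6 in the controls. All combination and all nintedanib libraries were above all controls. Against controls it changed by 0.55 ± 0.14 (SE, adjusted p = 0.00847) with nintedanib and 0.38 ± 0.14 (SE, adjusted p = 0.0427) with the combination, and 0.41 (adjusted p = 0.0257) with nintedanib when nintedanib 3 was left out. mt-Nd1 missed the threshold with the combination when any 1 of control 1, control 2, control 3, combination 1 and combination 3 was left out (adjusted p 0.0771 to 0.126). mt-Nd2 measured 852, 678 and 799 FPKM in the combination libraries, 776, 742 and 1178 in the nintedanib libraries, 652, 685 and 508 in the radiation libraries and 551, 501 and 569.9 in the controls. Both groups given nintedanib were again above the controls throughout. This gave a fold change of 0.70 ± 0.18 (SE, adjusted p = 0.00757) with nintedanib, or 0.49 (adjusted p = 0.0175) without nintedanib 3, and 0.52 ± 0.18 (SE, adjusted p = 0.0303) with the combination. mt-Nd2 missed the threshold with the combination when any 1 of control 1, control 2, control 3, combination 1 and combination 3 was left out (adjusted p 0.0522 to 0.0935).

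mt-Nd4 measured 615, 561 and 634 FPKM in the combination libraries, 612, 584 and 919 in the nintedanib libraries, 615, 591 and 459 in the radiation libraries and 483, 510.4 and 530.2 in the controls. Combination and nintedanib libraries were above all controls, with nintedanib 3 far above the rest, in a gene that shares 62.2% of its windows with another transcript. Its fold change came to 0.44 ± 0.16 (SE, adjusted p = 0.0492) with nintedanib and 0.25 ± 0.16 (SE, adjusted p = 0.241) with the combination. Without nintedanib 3 the nintedanib value was 0.24. mt-Nd4 missed the threshold with nintedanib when any 1 of control 1, control 2, control 3 and nintedanib 3 was left out (adjusted p 0.0816 to 0.154). mt-Nd5 and mt-Nd6 overlap on opposite strands and cannot be told apart where they do. They stood at 744 to 1311 FPKM and 506 to 1481 FPKM and were not called, at 0.19 ± 0.17 and 0.10 ± 0.30 with nintedanib. mt-Nd4l and mt-Nd3, of the low class, were at 0.56 ± 0.28 and 0.19 ± 0.20.

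Outside complex I none of the mitochondrial genes was called. mt-Cytb, the electron-carrying core of complex III, measured 2067, 1881 and 1920.2 FPKM in the combination libraries, 1743, 1877 and 2337 in the nintedanib libraries, 1918, 1962 and 1578 in the radiation libraries and 1655, 1600.3 and 1707 in the controls. Combination and nintedanib libraries were all above the controls, at 0.24 ± 0.12 (SE, adjusted p = 0.129) and 0.25 ± 0.12 (SE, adjusted p = 0.122). mt-Co1, the subunit that reduces oxygen and the gene with the highest level here, measured 4327, 3872 and 3952 FPKM in the combination libraries, 3825, 4239 and 5917 in the nintedanib libraries, 4215, 4068 and 3579 in the radiation libraries and 3977, 3772 and 4127 in the controls. Its groups overlapped, at 0.03 ± 0.15 (SE, adjusted p = 0.879) with the combination, 0.21 ± 0.15 (SE, adjusted p = 0.283) with nintedanib and 0.00 ± 0.15 (SE, adjusted p = 0.988) with radiation. mt-Co2, which takes electrons from cytochrome c, stood at 0.31 ± 0.13 (SE, adjusted p = 0.0827) with the combination and mt-Co3 at 0.54 ± 0.41 (SE, adjusted p = 0.306), where combination 3 measured 67.9 FPKM and the other 11 libraries at most 32.1 FPKM. The ATP synthase genes mt-Atp6 and mt-Atp8 were at 0.03 ± 0.32 and 0.54 ± 0.49.

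Most genes of the machinery that copies and transcribes mitochondrial DNA fell with nintedanib and with the combination, while no mitochondrial gene was called lower. Of 18 tested genes of mitochondrial transcription and DNA maintenance, 1 higher and 11 lower were called with the combination (median -0.39), 1 higher and 11 lower with nintedanib (-0.38) and 1 higher and 3 lower with radiation (-0.11). Among all genes tested, 25%, 22% and 9.9% were lower in these comparisons and 22.3%, 19.7% and 8.04% higher. Lonp1, the matrix protease that also degrades Tfam, measured 42.5, 51.6 and 48.8 FPKM in the combination libraries, 47.9, 44.2 and 39.4 in the nintedanib libraries, 121, 105 and 119 in the radiation libraries and 116, 139 and 124 in the controls. Every library given nintedanib was below every library without it. Its log2 fold change was -1.39 ± 0.10 (SE, adjusted p = 1.87e-06) with the combination and -1.5 ± 0.10 (SE, adjusted p = 1.37e-06) with nintedanib, and -0.13 ± 0.10 (SE, adjusted p = 0.41) with radiation. Tfam, which packages mitochondrial DNA and starts its transcription, measured 9.16, 10.3 and 8.92 FPKM in the combination libraries, 8.62, 7.29 and 9.39 in the nintedanib libraries, 12.3, 12.3 and 11 in the radiation libraries and 12.6, 12.6 and 12.7 in the controls. Combination and nintedanib libraries were below all controls, at -0.39 ± 0.09 (SE, adjusted p = 0.00329) and -0.54 ± 0.09 (SE, adjusted p = 4.70e-04). The helicase Twnk changed by -0.64 ± 0.09 (SE, adjusted p = 1.56e-04) with the combination, -0.77 ± 0.09 (SE, adjusted p = 5.04e-05) with nintedanib and -0.77 ± 0.09 (SE, adjusted p = 3.91e-04) with radiation. The polymerase Polrmt changed by -0.34 ± 0.08 (SE, adjusted p = 0.00446) and Tfb2m, its initiation factor, by -0.51 ± 0.09 (SE, adjusted p = 9.42e-04) with the combination. The termination factor relative Mterf2 was the gene called higher in the combination, at 0.28 ± 0.08 (SE, adjusted p = 0.0111).

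Most genes that process and stabilise mitochondrial RNA fell as well in these groups, with 0 higher and 14 lower of 19 with the combination (median -0.38), 0 higher and 12 lower with nintedanib (-0.31) and 0 higher and 5 lower with radiation (-0.18), beside 25%, 22% and 9.9% lower among all genes tested. Tbrg4, an RNA-binding protein of the FASTK family, measured 11.2, 12.3 and 14.3 FPKM in the combination libraries, 15.4, 12.4 and 13.3 in the nintedanib libraries, 22.2, 18.3 and 20.8 in the radiation libraries and 27.1, 29.8 and 28.4 in the controls, with all treated libraries below all controls. It changed by -1.12 ± 0.10 (SE, adjusted p = 7.51e-06) with the combination, -1.0 ± 0.10 (SE, adjusted p = 2.13e-05) with nintedanib and -0.46 ± 0.10 (SE, adjusted p = 0.0124) with radiation, the last at 0.0566 without radiation 2. The poly(A) polymerase Mtpap changed by -0.75 ± 0.08 (SE, adjusted p = 1.93e-05) with the combination and -0.66 ± 0.08 (SE, adjusted p = 5.86e-05) with nintedanib, and Lrpprc, which stabilises mitochondrial mRNAs, by -0.33 ± 0.06 (SE, adjusted p = 6.50e-04) and -0.31 ± 0.06 (SE, adjusted p = 0.00101).

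Most genes on a list of nuclear regulators of respiratory genes also fell with nintedanib and with the combination. Of 11 tested, 0 higher and 7 lower were called with the combination (median -0.55), 0 higher and 7 lower with nintedanib (-0.26) and 0 higher and 5 lower with radiation (-0.28), beside 25%, 22% and 9.9% lower among all genes tested. Myc, a growth regulator with many mitochondrial targets, measured 26.7, 32.4 and 30.2 FPKM in the combination libraries, 41.2, 37.9 and 36.1 in the nintedanib libraries, 74, 68.9 and 79.6 in the radiation libraries and 169.995, 176 and 182 in the controls. The controls stood apart above every treated library, and radiation above both groups given nintedanib. The difference on the log2 scale was -2.53 ± 0.09 (SE, adjusted p = 5.90e-08) with the combination, -2.17 ± 0.09 (SE, adjusted p = 6.96e-08) with nintedanib and -1.24 ± 0.09 (SE, adjusted p = 3.57e-05) with radiation. The coactivator Pprc1 changed by -1.15 ± 0.10 (SE, adjusted p = 4.44e-06), -0.95 ± 0.10 (SE, adjusted p = 2.13e-05) and -0.46 ± 0.10 (SE, adjusted p = 0.00978) in the same order of comparisons. Nrf1, whose sites lie in many respiratory promoters, measured 3.48, 3.25 and 3.28 FPKM in the combination libraries, 4.28, 3.51 and 3.69 in the nintedanib libraries, 3.94, 3.62 and 4.39 in the radiation libraries and 5.91, 5.66 and 5.72 in the controls, below the controls in every treated library, and changed by -0.64 ± 0.08 (SE, adjusted p = 5.55e-05), -0.49 ± 0.08 (SE, adjusted p = 4.50e-04) and -0.44 ± 0.08 (SE, adjusted p = 0.00366). The GA-binding protein subunits Gabpa and Gabpb1 changed by -0.59 ± 0.11 (SE, adjusted p = 8.04e-04) and -0.61 ± 0.07 (SE, adjusted p = 5.72e-05) with the combination. Esrra was not called, at 0.20 ± 0.16, Ppargc1b stood at 0.383 to 1.34 FPKM and was not called, and Ppargc1a reached 0.0171 FPKM and was not tested.

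Assembly factors put the complexes together without staying in them. Among all genes tested, 47.2%, 41.6% and 17.9% were called with the combination, nintedanib and radiation. For complex I, 1 higher and 4 lower of 15 were called with the combination, 1 higher and 2 lower with nintedanib and 0 higher and 0 lower with radiation. Ndufaf4 changed by -0.78 ± 0.12 (SE, adjusted p = 2.66e-04) with the combination and -0.46 ± 0.12 (SE, adjusted p = 0.00906) with nintedanib, and Tmem126b, part of the membrane assembly complex, by 0.42 ± 0.10 (SE, adjusted p = 0.00461) and 0.38 ± 0.10 (SE, adjusted p = 0.00912). For complexes II to V, 2 higher and 6 lower of 32 were called with the combination, 1 higher and 7 lower with nintedanib and 1 higher and 2 lower with radiation. Sdhaf4, which protects the flavinated Sdha before assembly, measured 9.61, 11.9 and 9.44 FPKM in the combination libraries and 4.62, 5.75 and 3.58 in the controls, with no overlap, and changed by 1.01 ± 0.15 (SE, adjusted p = 2.58e-04). Sco1, which delivers copper to complex IV, and Cox10, which makes its heme precursor, changed by -0.55 ± 0.06 (SE, adjusted p = 4.46e-05) and -0.77 ± 0.12 (SE, adjusted p = 3.95e-04).

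A further list of 11 genes held mobile carriers and enzymes that feed electrons into the chain. It also held Cyc1 and Ndufab1, subunits of complexes III and I that the choice by symbol left out. Of the 11, 2 higher and 4 lower were called with the combination, 1 higher and 2 lower with nintedanib and 0 higher and 1 lower with radiation, beside 47.2%, 41.6% and 17.9% called among all genes tested. Cytochrome c itself (Cycs) was not called, at -0.31 ± 0.20 with the combination. Proline dehydrogenase (Prodh) changed by -0.80 ± 0.10 (SE, adjusted p = 5.35e-05) with the combination, -0.64 ± 0.10 (SE, adjusted p = 3.24e-04) with nintedanib and -0.56 ± 0.10 (SE, adjusted p = 0.00312) with radiation. Sulfide quinone oxidoreductase (Sqor) changed by 0.37 ± 0.10 (SE, adjusted p = 0.0105) with the combination, and Etfdh, which passes electrons from fatty acid oxidation to ubiquinone, by 0.31 ± 0.05 (SE, adjusted p = 7.77e-04) with nintedanib.

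Promoter windows of the nuclear genes were searched for letters typical of Nrf1 and Gabpa and of YY1, another factor of respiratory promoters. Windows ran from 250 bases before to 50 after a gene's start (RefSeq, GRCm38.p6), and 66 of the 85 nuclear genes had one. The motifs, read on both strands, were GCGCANGCG for NRF1, CCGGAAG for the ETS family that includes Gabpa, and AAGATGGCG for YY1, and the ETS and YY1 letters can overlap where one follows the other. In the windows below, which belong to genes called in the combination, the matches are in capitals. Among the genes with a window, the one with the largest called rise is shown for each motif, together with the one of the 2 called lower that had the larger fall. They are given 5′ to 3′ on the strand of the gene: Uqcrh from chr4:116075021-116075320, minus strand, Ndufs8 from chr19:3912725-3913024, minus strand, Atp5j2 from chr5:145191492-145191791, minus strand, and Uqcr11 from chr10:80406772-80407071, minus strand.
Uqcrh: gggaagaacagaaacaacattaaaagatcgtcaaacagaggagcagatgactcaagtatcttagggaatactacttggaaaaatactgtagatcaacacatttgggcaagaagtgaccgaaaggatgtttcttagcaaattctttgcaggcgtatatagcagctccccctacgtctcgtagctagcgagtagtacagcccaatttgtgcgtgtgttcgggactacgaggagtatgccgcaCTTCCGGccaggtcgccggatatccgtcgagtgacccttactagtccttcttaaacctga
Ndufs8: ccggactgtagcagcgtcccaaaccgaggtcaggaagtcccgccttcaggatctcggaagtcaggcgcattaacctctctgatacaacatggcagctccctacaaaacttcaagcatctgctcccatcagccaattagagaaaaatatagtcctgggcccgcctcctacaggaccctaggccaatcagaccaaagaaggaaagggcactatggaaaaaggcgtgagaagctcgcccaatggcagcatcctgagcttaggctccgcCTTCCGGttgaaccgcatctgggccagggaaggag
Atp5j2: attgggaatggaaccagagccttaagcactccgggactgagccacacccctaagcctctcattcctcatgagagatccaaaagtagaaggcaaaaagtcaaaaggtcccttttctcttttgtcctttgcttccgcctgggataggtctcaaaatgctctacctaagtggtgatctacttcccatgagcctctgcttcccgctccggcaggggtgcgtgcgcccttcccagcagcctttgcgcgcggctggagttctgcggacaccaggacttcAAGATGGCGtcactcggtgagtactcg
Uqcr11: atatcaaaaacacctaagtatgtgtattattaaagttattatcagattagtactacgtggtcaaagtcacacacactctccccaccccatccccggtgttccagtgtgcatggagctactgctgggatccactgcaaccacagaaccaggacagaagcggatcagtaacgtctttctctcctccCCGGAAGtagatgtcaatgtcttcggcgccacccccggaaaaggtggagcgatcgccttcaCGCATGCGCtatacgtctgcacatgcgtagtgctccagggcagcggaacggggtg
Uqcrh, which rose, and Ndufs8, which fell, both carry the ETS letters on the other strand, Atp5j2 the YY1 letters, and Uqcr11 the NRF1 and the ETS letters.

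NRF1 letters were in 31.7% of the 63 tested nuclear genes with a window (20 genes), beside 16.5% of 8547 tested protein-coding genes and 6.25% of all 32851 windows of that length. ETS letters were in 25.4%, beside 21.8% and 8.86%, and YY1 letters in 11.1%, beside 3.95% and 1.4%. Of the 18 genes with a window that rose in the combination, 5 held NRF1, 6 ETS and 3 YY1 letters, and of the 43 not called 15, 9 and 4. A match is a run of letters and not a shown binding site.

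Gene length moved with the fold changes in the combination. Of the nuclear genes, 36 had gene models of at most 1500 bases, and 15 of these were called higher and 2 lower (median 0.39), beside 26.8% higher and 12.6% lower among all tested protein-coding genes of that length. Of the 42 longer ones, 7 were higher and 3 lower (median -0.01), beside 24.5% and 28.8%. Among all tested protein-coding genes the median was 0.13 for the 788 short and -0.04 for the 10019 longer genes. With nintedanib the medians of short and longer nuclear genes were 0.17 and -0.02, and with radiation -0.08 and -0.15. After a trend of log2(FPKM + 1) on gene length was taken out of each library, 21 nuclear genes were higher and 7 lower in the combination, with a median of 0.12. That run called 49.4% of all genes, and 48.2% of those calls were higher. With nintedanib, 4 of the 42 longer nuclear genes were higher and 1 lower (9.52% and 2.38%), beside 22.6% and 25.1% of all longer protein-coding genes. Sdhc, Cox6c and Atp5j2, with gene models of 3250, 3567 and 3306 bases, were among the longer genes called higher with nintedanib and with the combination. The cause of the trend with length was not tested.

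**Figure D5:**
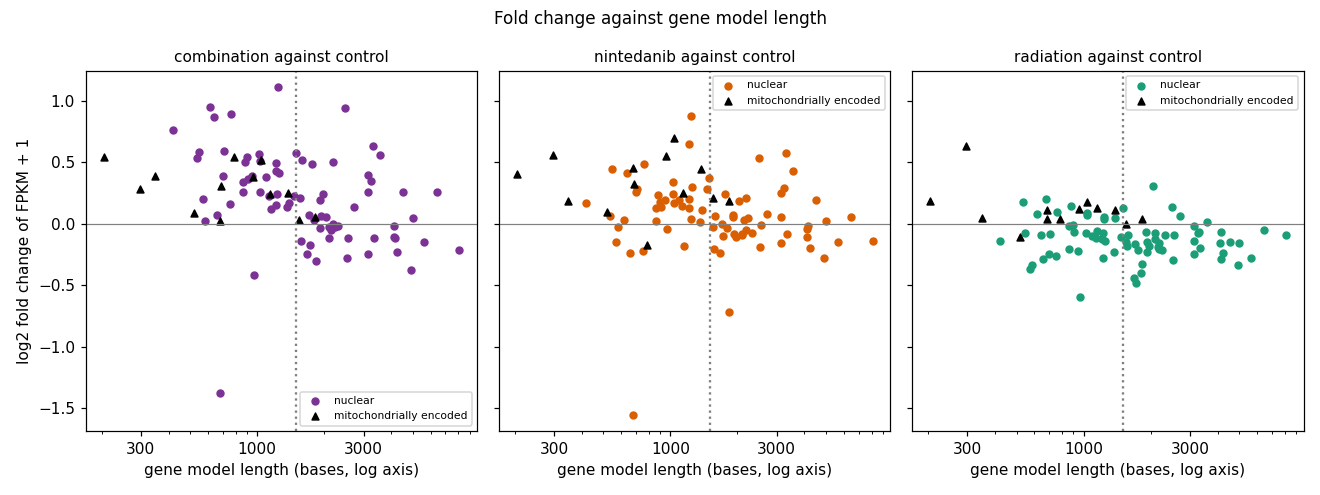
Log2 fold change of FPKM + 1 against control (vertical) and gene model length in bases on a log axis (horizontal) of the tested genes, for nintedanib, radiation and the combination. Circles are nuclear and triangles mitochondrial genes, and the dotted line is at 1500 bases. In the combination panel most genes above 0.5 lie left of the line.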

How the data were processed

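The transcriptome of MC38 cultures was measured in 12 libraries, 3 per group, grouped and numbered by the sample titles. Per the labels' protocols, total RNA was column-purified and libraries came from a SMARTER mRNA kit. The authors deposited FPKM values for 54532 genes along with each gene's biotype, coordinates and gene model length, per the file headers. The submitters' processing notes name GRCm38 (mm10) as the build. For the aligner, counter, strand setting and scaling factor the answer is not given in the sources used here. These settings bear on genes with near-identical copies or an overlapping gene on the other strand. FPKM times gene model length was a whole multiple of 1 step in 100% of nonzero values (tolerance 0.01 of a step). That gave whole fragments and the fragment total of each library, 16103528 to 18196615. An FPKM of 1 over 1000 bases stood for 16.4 to 18.7 fragments, so short genes at low FPKM were the least precise. The labels mention no molecular identifiers, so fragments can be copies of 1 molecule, and the fragment total covers counting error only. Replicates differed by more than sampling noise in a chi-square test of their fragments, 4.3 to 30.2 per gene.

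Values were tested as log2(FPKM + 1) with limma 3.58.1 (two-sided, empirical Bayes with an intensity trend) in R 4.3.3, with all 12 libraries in 1 fit of group means (8 residual degrees of freedom). The Benjamini-Hochberg adjustment ran over the 13012 genes tested in each of 6 comparisons, at 0.05, and the fit was tested on simulated data. Fold changes on this scale understate those of genes at low FPKM. Windows of 50 bases shared with other transcripts were found by exact match in GENCODE M21 transcripts, and copies of mitochondrial genes with blastn 2.17.0. Promoters were RefSeq windows of GRCm38.p6. Members were matched by symbol or by gene identifier, and the tested protein-coding genes set beside them by symbol alone. The members and gene lists were chosen with earlier results of these data known. Any member could be named; those described in full were the 13 mitochondrial genes, the core subunits, the isoform pairs and, per complex and comparison with control, up to 3 called rises and 3 called falls at a mean of at least 5 FPKM. One complex I gene is counted but not reported here by name. From each list up to 4 called genes with the smallest adjusted p and the main regulators could be named. Alternatives were a pseudocount of 0.1, no filter, protein-coding genes only, 2 rescalings, voom on the recovered fragments, no intensity trend, a replicate block, only the groups compared, each library left out and, chosen after seeing the data, removal of a length trend.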

Additional observations from a re-analysis of the deposited data

How the results depend on the processing

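Of 280 single-gene calls of the main fit, none changed direction in 4480 recomputed values. Of these values, 3841 stayed past the threshold and 639 did not, and 168 calls never lost it. With no filter, protein-coding genes only, no intensity trend, the replicate block or only the groups compared, the fold change itself stays the same. Direction could therefore not change in those runs. Of the calls against control, 12 of 29 with the combination, 6 of 12 with nintedanib and 1 of 6 with radiation held in all 16 alternatives run. Leaving out 1 library at a time, the nuclear counts were 16 to 33 with the combination, 6 to 15 with nintedanib, 1 to 3 with radiation and 19 to 40 for the combination against radiation, and the mitochondrial counts 2 to 4 with nintedanib and 0 to 2 with the combination. The shares of all genes called in those runs were 40% to 43.1% with the combination, 34.5% to 41.1% with nintedanib and 8.8% to 12.1% with radiation. For the combination against radiation they were 27.3% to 32.5%. With no filter, limma called 1 nuclear gene with radiation and 16 with the combination, and 0 and 0 mitochondrial genes with nintedanib and the combination. That run tested 30404 genes and called 5.77% of them with radiation, 20.9% with the combination and 16.2% with nintedanib. The main fit called 17.9%, 47.2% and 41.6% of 13012. With a common sum the nuclear counts were 16 with nintedanib, 3 with radiation and 1 for the combination against nintedanib, beside 39.1%, 14.7% and 4.08% of all genes. With voom the nuclear count was 14 with nintedanib, and the mitochondrial counts 5 with nintedanib and 4 with the combination. Over all genes voom called 43.3% with nintedanib and 47.8% with the combination. With the length trend removed, the nuclear counts were 15 with nintedanib and 1 for the combination against nintedanib, and the mitochondrial count 0 with the combination. Of all genes, 44.2%, 6.13% and 49.4% were called in these comparisons. With only the groups compared in the fit, 4 mitochondrial genes were called with the combination and 1 for the combination against radiation, beside 46.2% and 32.4% of all genes. The causes of these moves were not tested. Replicate numbers were shared across groups, but same-numbered libraries did not deviate together: 3 of 18 correlations were over 0.1. With the replicate block, nuclear calls were 9 with nintedanib, 5 with radiation, 24 with the combination and 26 for the combination against radiation, and mitochondrial calls 1 with the combination. The shares of all genes called were 39.1%, 13.8%, 44.5% and 31.3% in the same order of comparisons. Among all called genes, the share that was higher moved with a common sum to 60% from 47.2% with nintedanib and to 69.8% from 44.8% with radiation, where voom gave 59.6%. The median of all genes in the interaction became -0.10 with a common sum. With 3 libraries per group, depth limits chiefly the genes at low FPKM or with short gene models.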

Other observations

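The enzymes that supply the chain were called in shares near those of all genes tested with the combination, with members in both directions. Of 24 tested genes of the citric acid cycle and pyruvate dehydrogenase, 4 higher and 7 lower were called with the combination, 6 higher and 6 lower with nintedanib and 0 higher and 4 lower with radiation, with medians of -0.01, 0.01 and -0.13, beside 47.2%, 41.6% and 17.9% called among all genes tested. Pdk1, a kinase that switches pyruvate dehydrogenase off, measured 15.2, 13.1 and 15.7 FPKM in the combination libraries, 16.8, 14.6 and 17 in the nintedanib libraries, 6.92, 7.17 and 7.4 in the radiation libraries and 8.79, 8.45 and 8.15 in the controls. Every library given nintedanib was above every library without it. Its log2 fold change was 0.73 ± 0.08 (SE, adjusted p = 2.42e-05) with the combination, 0.85 ± 0.08 (SE, adjusted p = 9.50e-06) with nintedanib and -0.21 ± 0.08 (SE, adjusted p = 0.0826) with radiation. Pdk3, a kinase of the same family, changed by 0.29 ± 0.06 (SE, adjusted p = 0.00203) with the combination and 0.41 ± 0.06 (SE, adjusted p = 2.40e-04) with nintedanib. Dld, the dihydrolipoamide dehydrogenase that pyruvate and oxoglutarate dehydrogenase share, measured 29, 32.3 and 28.7 FPKM in the combination libraries, 28.4, 27.5 and 31.4 in the nintedanib libraries, 48.7, 41.8 and 41.5 in the radiation libraries and 43.7, 47.3 and 46.6 in the controls. The libraries given nintedanib were all below the others. It changed by -0.60 ± 0.08 (SE, adjusted p = 1.29e-04) with the combination and -0.64 ± 0.08 (SE, adjusted p = 9.80e-05) with nintedanib. Dlst, of oxoglutarate dehydrogenase, changed by -0.39 ± 0.06 (SE, adjusted p = 3.48e-04) and -0.42 ± 0.06 (SE, adjusted p = 2.59e-04), and Pcx, pyruvate carboxylase, by 0.74 ± 0.11 (SE, adjusted p = 2.21e-04) with the combination.

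Of 12 tested genes of ubiquinone synthesis, 1 higher and 4 lower were called with the combination, 1 higher and 4 lower with nintedanib and 0 higher and 3 lower with radiation, beside the same shares of all genes. Coq3, a methyltransferase of the pathway, measured 3.3, 3.63 and 3.21 FPKM in the combination libraries, 3.39, 3.89 and 3.16 in the nintedanib libraries, 3.06, 3.89 and 2.89 in the radiation libraries and 4.68, 5.05 and 5.31 in the controls, and every treated library was below every control. It changed by -0.46 ± 0.10 (SE, adjusted p = 0.00252) with the combination, -0.43 ± 0.10 (SE, adjusted p = 0.00453) with nintedanib and -0.50 ± 0.10 (SE, adjusted p = 0.00665) with radiation. Pdss1, which makes the isoprenoid tail, changed by -0.60 ± 0.10 (SE, adjusted p = 6.35e-04) with the combination and -0.61 ± 0.10 (SE, adjusted p = 7.02e-04) with nintedanib. Coq10a, a ubiquinone-binding protein, measured 10.2, 9.43 and 10.5 FPKM in the combination libraries, 11.8, 10.7 and 10.1 in the nintedanib libraries, 4.7, 6.38 and 6.48 in the radiation libraries and 7.16, 7.82 and 7.76 in the controls, higher in both groups given nintedanib than in controls, and changed by 0.36 ± 0.10 (SE, adjusted p = 0.012) with the combination and 0.47 ± 0.10 (SE, adjusted p = 0.00346) with nintedanib.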
